A study of Mus musculus with 9 samples.

Results

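Xanthine dehydrogenase was described here with a sister enzyme, the sulfurase of their molybdenum cofactor and enzymes that handle superoxide and hydrogen peroxide. The group holds 7 mouse genes, namely Xdh (gene ID 22436), Aox1 (11761), Mocos (68591), Sod1 (20655), Sod2 (20656), Sod3 (20657) and Cat (12359). They were found by symbol in the transcript tables, and the transcript with the highest mean read count over the 9 libraries stands for each gene. The group is 7 of 28932 genes with a gene ID in the tables, and all 7 passed the low-count filter that left 12372 genes for testing. Transcripts were selected on their mean count, the measured value that the choice used. The genes themselves were picked with earlier results of these data known, and Xdh for its response, so the values of Xdh and Sod3 are a description.

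Xdh encodes a molybdenum enzyme that turns hypoxanthine into xanthine and xanthine into uric acid, and its oxidase form hands electrons to oxygen, which makes superoxide and hydrogen peroxide. Aox1 encodes a sister molybdenum enzyme, aldehyde oxidase, and Mocos encodes the sulfurase that completes the molybdenum cofactor of both. Superoxide dismutases turn superoxide into hydrogen peroxide, and catalase breaks hydrogen peroxide down to water and oxygen. Xdh is known in mouse liver cells as a gene that responds to the aryl hydrocarbon receptor (AhR), a transcription factor that is switched on by planar aromatic ligands.

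RNA sequencing of total RNA was done on mouse hepatoma cells in 3 groups of 3 libraries, all after 6 h. The first group received 10 nM FICZ, a tryptophan-derived AhR ligand. The second received 50 uM tryptamine, an amine that cells make from tryptophan. The third was the control, called untreated in the treatment label and vehicle in the protocol. All groups are the same cells, given as Hepa 1 WT by source and as HC1C by cell line label, so the data describe 1 cell line at 1 dose of each agent. No label says that the libraries of a group came from separate cultures, so p-values measure the spread between these libraries, which may be technical. The series title names tryptamine as a proligand of the AhR pathway, and the comparisons below ask which of the 7 genes differed with each agent.

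The libraries held 14173728 to 16715842 counts with FICZ, 12983742 to 15540233 with tryptamine and 11594782 to 14783262 in the controls. Control replicate 3 stood apart from the others. Its log2 levels correlated at 0.954 to 0.960 with the other libraries, while the best correlation of each other library was 0.990 to 0.992. Against the mean of control replicates 1 and 2, its median log2 difference was 0.62 over the 1150 genes with transcripts of at most 1000 nt and -0.85 over the 1320 genes above 6000 nt. Markers of hepatocytes were in part absent. Levels are given as CPM, counts per 1000000 of a library's effective size. Alb, Afp, Trf, Krt8, Krt18, Foxa1 and Foxa2 were tested, while Ttr, Apoa1, Apob and Hnf4a had no count in any library. The summed level of the 12 markers listed was 4442 to 4604 CPM with FICZ, 4671 to 4879 CPM with tryptamine and 4910 to 6800 CPM in the controls. The keratins Krt8 and Krt18 held most of it, with means of 1772 and 1896 CPM with FICZ, beside 212 of Alb and 117 of Afp. Krt18 had its highest count, 38664, in control replicate 3. Fibroblast and stellate markers were also present in part, with 7 of 10 tested. They summed to 1631 to 1755 CPM with FICZ, 1631 to 1774 CPM with tryptamine and 1401 to 1702 CPM in the controls. Most of this was Col1a1 (means of 1250 CPM with FICZ, 1231 with tryptamine and 1087 in the controls) and Dcn (313, 341 and 387). Lum had no count in any library, Col1a2 at most 6 and Thy1 at most 1. Bile duct markers summed to 1046 to 1098 CPM with FICZ, 1019 to 1098 CPM with tryptamine and 1114 to 1550 CPM in the controls, with 4 of 5 tested and Epcam at 0. Krt7 held most of that sum, with means of 877 CPM with FICZ, 873 with tryptamine and 1057 in the controls. Blood and Kupffer markers (4 of 9 tested, with Clec4f and Emr1 at 0) summed to at most 119.3 CPM in any library, and endothelial markers (1 of 6 tested, with Cdh5 and Tek at 0) to at most 8.79 CPM. The part of these markers in the results below was not tested.

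**Figure D1:**
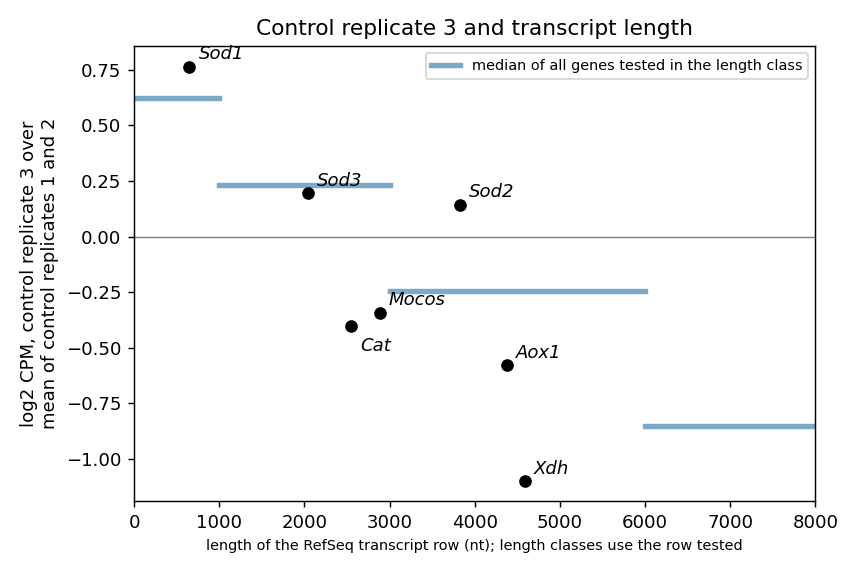
Each point is a member, placed by the length of its RefSeq transcript (x axis, nt) and by the log2 ratio of its CPM in control replicate 3 over the mean of control replicates 1 and 2 (y axis). The bars are medians of all genes tested in 4 length classes, and the last bar stands for all genes above 6000 nt. Sod1 lay highest and Xdh lowest of the 7, and Sod2 and Sod3 also lay above 0.

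Promoter windows of 250 bases before to 50 bases after the gene start were found for 4 of the 7 genes in the RefSeq table (build GRCm38.p6), namely Aox1, Sod1, Sod2 and Cat. The core of the AhR response element is GCGTG, which reads CACGC on the other strand. Both were searched, and no copies in these windows overlap. Sod1 (chr16:90220512-90220811, plus strand) held 3 copies, Sod2 (chr17:13007589-13007888, plus strand) 2, Aox1 (chr1:58029719-58030018, plus strand) 1 and Cat (chr2:103485104-103485403, minus strand) 0. Of 32851 promoter windows in the table, 32.4% held at least 1 copy, 11.1% at least 2 and 3.91% at least 3. The windows of Sod1, Aox1 and Cat are printed because they range from several copies to none, with the motif in capitals.

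Sod1: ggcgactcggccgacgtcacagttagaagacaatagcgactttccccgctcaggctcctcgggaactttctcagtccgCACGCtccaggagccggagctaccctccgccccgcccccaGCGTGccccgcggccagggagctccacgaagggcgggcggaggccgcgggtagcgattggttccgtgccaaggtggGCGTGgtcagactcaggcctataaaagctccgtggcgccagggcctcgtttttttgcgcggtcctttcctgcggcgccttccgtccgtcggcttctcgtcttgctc
Aox1: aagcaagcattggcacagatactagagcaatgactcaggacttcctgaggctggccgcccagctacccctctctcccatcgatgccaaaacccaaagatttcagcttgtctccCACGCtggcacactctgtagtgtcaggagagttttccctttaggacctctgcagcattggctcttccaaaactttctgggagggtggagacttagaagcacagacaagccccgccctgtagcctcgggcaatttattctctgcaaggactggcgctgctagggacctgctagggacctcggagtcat
Cat: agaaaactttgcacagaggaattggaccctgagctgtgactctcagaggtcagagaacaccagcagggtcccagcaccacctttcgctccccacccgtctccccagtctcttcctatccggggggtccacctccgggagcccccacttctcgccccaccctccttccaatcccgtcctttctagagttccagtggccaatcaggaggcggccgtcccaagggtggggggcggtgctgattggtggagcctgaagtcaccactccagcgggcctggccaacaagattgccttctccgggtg

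A match is a description of the letters in the window and not a binding site. None of the 4 genes with a window passed the edgeR test in any comparison, with all 9 libraries or without control replicate 3. For FICZ against control, 0.113% of all genes passed as higher and 0% as lower with all 9 libraries. Without control replicate 3, 0.574% and 0.231% did, so none of 4 is near the share over all genes. Xdh, Mocos and Sod3 had no window, so motif copies cannot be set against their values.

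Xdh rose with FICZ and was the one member of 7 that passed the test with all 9 libraries, where 0.113% of all genes tested passed as higher. Its level was 94.6, 82.1 and 82.4 CPM with FICZ, 45.4, 40.0 and 40.5 CPM with tryptamine, and 24.4, 22.1 and 11.0 CPM in the controls. The 3 groups did not overlap, with FICZ highest and the controls lowest, and control replicate 3 lay below both other controls. These levels rest on 1330, 1379 and 1205 counts with FICZ, on 667, 518 and 628 counts with tryptamine, and on 360, 321 and 129 counts in the controls. The mean was 86.4 ± 7.15 CPM with FICZ, 42.0 ± 2.96 CPM with tryptamine and 19.1 ± 7.14 CPM in the controls (SD, n = 3 each), and 23.2 CPM over control replicates 1 and 2. In a bulk sample, fewer cells that express a gene and less of its RNA per cell cannot be told apart.

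With all 9 libraries in 1 edgeR quasi-likelihood fit, the log2 fold change of Xdh for FICZ against control was 2.17 ± 0.23 (SE, 95% interval 1.65 to 2.68, adjusted p = 0.00539). With only the 6 libraries compared in the fit it was 2.17 ± 0.27 and did not pass (adjusted p = 0.116). Without control replicate 3 it was 1.89 ± 0.11 (1.67 to 2.12, adjusted p = 7.84e-12). For tryptamine against control the log2 fold change was 1.12 ± 0.23 (0.62 to 1.63), which did not pass over all genes (adjusted p = 0.741), and without control replicate 3 it was 0.85 ± 0.11 (0.63 to 1.07) and passed (adjusted p = 0.000135). For FICZ against tryptamine, whose doses differ, it was 1.04 ± 0.22 (0.55 to 1.53) with all 9 libraries, where no gene passed (adjusted p = 1), and 1.04 ± 0.09 (0.86 to 1.23) without control replicate 3 (adjusted p = 1.23e-07). The difference of Xdh between FICZ and tryptamine uses no control library, so leaving out control replicate 3 could hardly move its estimate. The difference of Xdh from the controls was smaller without control replicate 3. In that library the log2 difference of Xdh from the mean of the other controls was -1.08.

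The tables list 11 transcripts of Xdh, which share reads and are not independent. In every one of the 11, both agents were above the control mean and FICZ was above tryptamine. The ratio of mean CPM ran from 3.80 to 4.93 for FICZ over control and from 1.70 to 3.17 for tryptamine over control. Over control replicates 1 and 2 alone these ranges were narrower, 3.29 to 3.84 for FICZ and 1.65 to 2.31 for tryptamine. FICZ over tryptamine ran from 1.55 to 2.23. The transcript with the most reads is 7775 nt long in the table and has 36 exons, while the RefSeq transcript is 4587 nt long. In the authors' deposited table, the 11 transcripts all had an adjusted p under 0.05 for FICZ over control, 9 of them for tryptamine over control and 10 for FICZ over tryptamine, always higher. The share of all transcripts that passed there was not counted. The authors' lists of higher genes held 81 genes for FICZ over control and 22 for tryptamine over control, with Xdh in both.

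**Figure D2:**
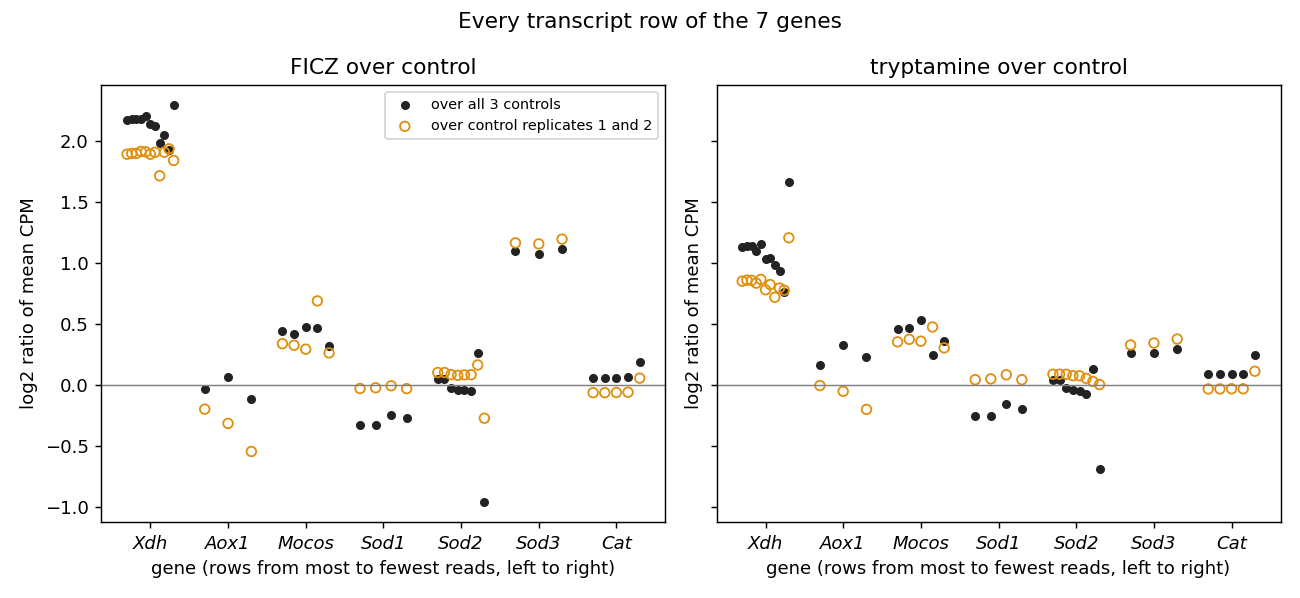
Every transcript of the 7 genes is plotted by its log2 ratio of mean CPM over control (y axis), for FICZ on the left and tryptamine on the right. Black points use all 3 controls and open orange circles control replicates 1 and 2. The 11 Xdh transcripts lie above 0 in both panels, and the 3 Sod3 transcripts lie close together.

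Aox1, the sister molybdenum enzyme, did not pass the test in any comparison. Aox1 had 55.5, 61.6 and 61.0 CPM with FICZ, 71.1, 62.9 and 69.6 CPM with tryptamine, and 68.9, 67.0 and 45.6 CPM in the controls. Every tryptamine library was above every FICZ library, which was so for 5.84% of all genes tested. The range of the controls overlapped both, with control replicate 3 lowest of the 9. The log2 fold change of Aox1 was -0.03 ± 0.15 for FICZ against control (95% interval -0.36 to 0.30), 0.17 ± 0.15 for tryptamine against control (-0.17 to 0.50) and -0.19 ± 0.15 for FICZ against tryptamine (-0.52 to 0.14). Without control replicate 3, FICZ against control was -0.19 ± 0.09 (-0.38 to -0.01), an adjusted p of 0.475, and then every FICZ library was below both controls. That was so for 14.1% of all genes tested. In the 3 Aox1 transcripts the ratio of FICZ to control ran from 0.924 to 1.05. The FICZ intervals of Aox1 lie below the whole interval of Xdh in both fits.

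Within each library, the level of Xdh per kb of its RefSeq transcript can be set against that of Aox1. The ratio was 1.62, 1.27 and 1.28 with FICZ, 0.607, 0.608 and 0.554 with tryptamine, and 0.335, 0.312 and 0.225 in the controls. Xdh RNA was above Aox1 RNA per kb in the 3 FICZ libraries and below it in the other 6. The mean ratio was 1.39 ± 0.199 with FICZ, 0.590 ± 0.0307 with tryptamine and 0.291 ± 0.0578 in the controls (SD, n = 3 each). This ratio holds the Xdh values that were chosen for their response and is given with no test.

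Mocos, whose product sulfurates the cofactor of both enzymes, had 29.1, 30.5 and 30.0 CPM with FICZ, 27.5, 31.7 and 31.4 CPM with tryptamine, and 22.4, 24.8 and 18.6 CPM in the controls. The libraries of both agents lay above the 3 controls, where 8.22% of all genes did so with FICZ and 5.19% with tryptamine. Its log2 fold change was 0.45 ± 0.13 for FICZ against control (95% interval 0.16 to 0.73, adjusted p = 0.574) and 0.46 ± 0.13 for tryptamine against control (0.17 to 0.75, adjusted p = 0.741), neither of which passed. The values without control replicate 3 were 0.34 ± 0.12 (adjusted p = 0.258) and 0.35 ± 0.12 (adjusted p = 0.548). FICZ against tryptamine gave -0.01 ± 0.13 (-0.30 to 0.27). Of the 5 Mocos transcripts, FICZ over control ran from 1.25 to 1.39 and tryptamine over control from 1.19 to 1.45. All FICZ libraries lay above all controls in 4 of the 5, and all tryptamine libraries did in 3.

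Sod3, the dismutase that cells secrete, had the fewest counts of the 7 genes. Its level was 15.3, 12.8 and 13.6 CPM with FICZ, 7.69, 7.72 and 7.94 CPM with tryptamine, and 4.87, 7.50 and 7.08 CPM in the controls. FICZ libraries were all above the other 6, and the tryptamine libraries lay just above the highest control. The counts behind them were 215, 215 and 199 with FICZ, 113, 100 and 123 with tryptamine, and 72, 109 and 83 in the controls.

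For Sod3 the FICZ against control log2 fold change was 1.10 ± 0.18 (95% interval 0.70 to 1.50), which missed the threshold with all 9 libraries (edgeR, adjusted p = 0.0628). It passed without control replicate 3 (1.17 ± 0.19, adjusted p = 0.000829) and in the DESeq2 Wald test with all 9 libraries (1.11, adjusted p = 2.22e-05). In control replicate 3 Sod3 was 0.20 log2 units above the mean of the other controls. Tryptamine against control gave 0.27 ± 0.19 (-0.14 to 0.68). FICZ against tryptamine gave 0.83 ± 0.18 (0.44 to 1.23, adjusted p = 1), and 0.84 ± 0.16 without control replicate 3 (adjusted p = 0.0235). The 3 Sod3 transcripts gave ratios of 2.11 to 2.17 for FICZ over control, 1.20 to 1.23 for tryptamine over control and 1.76 to 1.79 for FICZ over tryptamine. In the authors' deposited table all 3 had an adjusted p under 0.05 for FICZ over control, with a log2 fold change of 1.04 for the transcript used here. Sod3 is in the authors' list of 81 higher genes for FICZ over control, and the share of all transcripts that passed was not counted.

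Sod1, the copper and zinc dismutase of the cytosol, had the highest level per kb of the 7 genes in every group. Sod1 had 487.5, 471.2 and 479.6 CPM with FICZ, 485.0, 526.0 and 501.5 CPM with tryptamine, and 514.1, 461.7 and 828.6 CPM in the controls. The 3 groups overlapped, and control replicate 3 was the highest of the 9, with this transcript of 650 nt 0.76 log2 units above the other controls. The log2 fold change for FICZ against control was -0.33 ± 0.18 with all 9 libraries (95% interval -0.72 to 0.07) and -0.02 ± 0.06 without control replicate 3 (-0.15 to 0.10). For tryptamine against control it was -0.25 ± 0.18 and 0.04 ± 0.06 (-0.08 to 0.17), so its sign turned. The authors' deposited table lists 3 of the 4 Sod1 transcripts as lower with FICZ, with a log2 fold change of -0.40 and an adjusted p of 0.00134 for the transcript used here. The share of all transcripts listed there as lower was not counted. Over control replicates 1 and 2 the ratio of FICZ to control was 0.982 to 0.998 in the 4 transcripts.

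Sod2, the manganese dismutase of mitochondria, had 62.2, 67.9 and 67.9 CPM with FICZ, 62.3, 70.3 and 63.4 CPM with tryptamine, and 62.4, 60.2 and 67.7 CPM in the controls, and the groups overlapped. Its log2 fold change was 0.06 ± 0.10 for FICZ against control (95% interval -0.17 to 0.28), 0.04 ± 0.10 for tryptamine against control (-0.18 to 0.27) and 0.01 ± 0.10 for FICZ against tryptamine (-0.21 to 0.24). The ratio of FICZ to control ran from 0.515 to 1.20 over the 8 Sod2 transcripts, and from 0.830 to 1.12 over control replicates 1 and 2. Both low ends came from 1 transcript of 1 exon with a mean of 24.4 counts. The other Sod2 transcripts ran from 0.970 to 1.20, and from 1.06 to 1.12 over control replicates 1 and 2. The intervals of the transcript used hold no change as large as the 1.10 log2 units of Sod3 with FICZ.

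Cat, the catalase of peroxisomes, had 45.0, 46.6 and 55.1 CPM with FICZ, 50.9, 51.4 and 47.4 CPM with tryptamine, and 50.0, 51.9 and 38.6 CPM in the controls. The ratio of FICZ to control was 1.04 to 1.14 in the 5 transcripts. The groups overlapped here too, with control replicate 3 lowest of the 9 libraries. The log2 fold change was 0.06 ± 0.13 for FICZ against control (95% interval -0.24 to 0.36) and 0.09 ± 0.13 for tryptamine against control (-0.21 to 0.39). Without control replicate 3 both were below 0, at -0.06 ± 0.10 and -0.03 ± 0.10, and FICZ against tryptamine was -0.03 ± 0.13 (-0.33 to 0.27) with all 9 libraries.

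**Figure D3:**
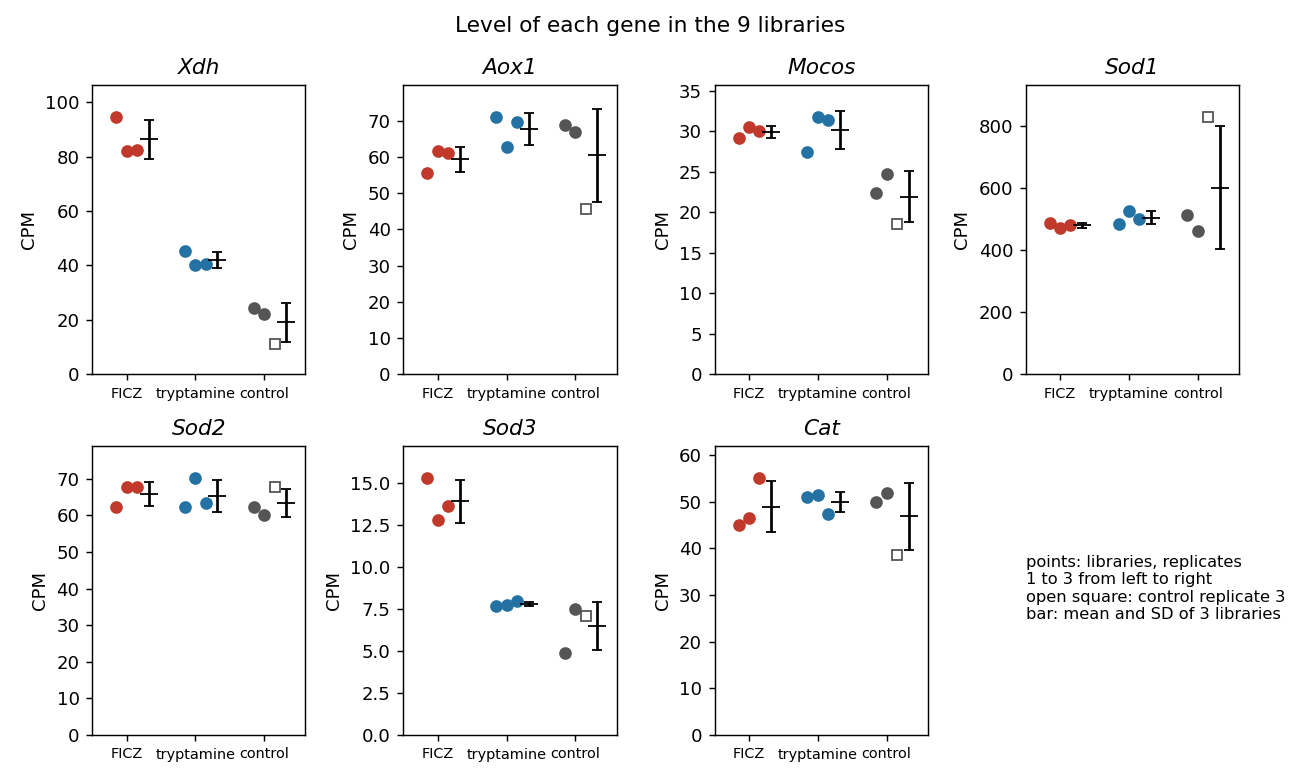
Each panel plots the CPM of 1 gene (y axis, from 0) in the libraries of FICZ, tryptamine and control, with the mean and SD of 3 libraries beside them. The open square is control replicate 3. Xdh falls into 3 separate levels, Sod3 is high with FICZ, and the square stands off in Sod1, Xdh and Aox1.

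**Figure D4:**
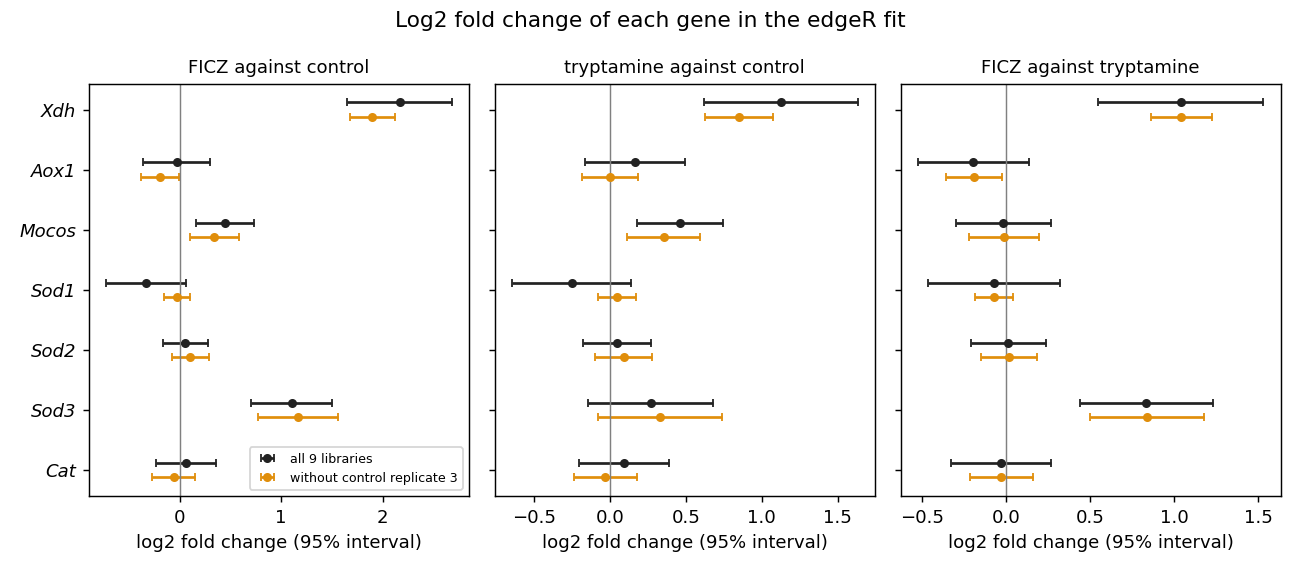
The log2 fold change of each gene in the edgeR fit is plotted with its 95% interval for the 3 comparisons, with all 9 libraries in black and without control replicate 3 in orange. Xdh and Sod3 lie to the right of 0 for FICZ, while the intervals of Sod2 and Cat hold 0 in every panel.

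Counted over the group, 1 of 7 genes (Xdh) passed as higher and 0 as lower for FICZ against control with all 9 libraries, where 0.113% of the 12372 genes tested passed as higher and 0% as lower. Without control replicate 3, 2 of 7 (Xdh and Sod3) passed as higher, where 0.574% of 12539 genes did, and 0 passed as lower, where 0.231% did. By an unadjusted p under 0.05 with all 9 libraries, 3 members (Xdh, Mocos and Sod3) were higher, where 3.52% of all genes were, and 0 were lower, where 4.6% were. DESeq2 called 2 members higher, where it called 0.364% of all genes, and 0 lower, where it called 0.0727%.

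For tryptamine against control the edgeR test called 0 of 7 members with all 9 libraries, where 0.00808% of all genes passed as higher and 0% as lower. At an unadjusted p under 0.05, 2 members (Xdh and Mocos) were higher, where 2.18% of all genes were, and 0 lower, where 2.97% were, and DESeq2 called 1 as higher (Xdh), where it called 0.097%, and 0 as lower, where it called 0%. Without control replicate 3 the edgeR test called 1 member (Xdh), where 0.183% of all genes passed as higher and 0.016% as lower. For FICZ against tryptamine it called 0 of 7 members and 0% of all genes in either direction. At an unadjusted p under 0.05, 2 members (Xdh and Sod3) were higher, where 0.703% of all genes were, and 0 lower, where 1.02% were, and DESeq2 called the same 2 members, where it called 0.0808%. Without control replicate 3 both passed the edgeR test as well, where 0.12% of all genes did, and 0 members passed as lower, where 0.016% did.

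Members whose groups did not overlap were counted as well. Xdh, Mocos and Sod3 had all 3 FICZ libraries above all 3 controls, where 8.22% of all genes did, and all 3 tryptamine libraries above them, where 5.19% did. None had all FICZ libraries below the controls, where 7.4% of all genes did, nor all tryptamine libraries, where 4.87% did. Xdh and Sod3 had all FICZ libraries above all tryptamine libraries, where 5.46% of all genes did, and Aox1 had them all below, where 5.84% did. Over control replicates 1 and 2 the same 3 genes were higher in every FICZ library, where 13.9% of all genes were, and in every tryptamine library, where 10.2% were. Aox1 was then lower in every FICZ library, and no member in every tryptamine library, where 9.84% of all genes were. The comparisons with control share their control libraries.

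Levels between genes were compared per kb of the RefSeq transcript. With FICZ the order of mean levels was Sod1 at 737.6 CPM per kb, Cat at 19.2 ± 2.13, Xdh at 18.7 ± 1.55, Sod2 at 17.3 ± 0.86, Aox1 at 13.5 ± 0.768, Mocos at 10.4 ± 0.254 and Sod3 at 6.80 ± 0.623. Cat, Xdh and Sod2 did not differ beyond their spread there. With tryptamine Xdh was sixth of the 7, at 9.13 ± 0.626 CPM per kb, below Sod1 at 775.6, Cat at 19.6, Sod2 at 17.1, Aox1 at 15.5 and Mocos at 10.5, and above Sod3 at 3.81. In the controls Xdh was again sixth, at 4.13 ± 1.56 CPM per kb, and did not differ beyond its spread from Sod3 at 3.17 ± 0.691. The controls had Sod1 at 925.3, Cat at 18.3, Sod2 at 16.6, Aox1 at 13.8 and Mocos at 7.60 CPM per kb. The place of Xdh depends on the length used. Its 7775 nt and 4587 nt transcripts had nearly the same mean count, 726.3 and 723.0. The longer one thus held few counts for its added length, and dividing by that length lowers the level. By the 7775 nt transcript its level was 11.1 CPM per kb with FICZ, 5.40 with tryptamine and 2.46 in the controls, which puts it below Aox1 with FICZ and below Sod3 in the controls.

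The pathways around these genes were read from 6 lists, whose members were chosen with earlier results of these data known. Molybdenum cofactor and molybdoenzyme genes make and carry the cofactor of Xdh. Of 14 listed genes 10 were tested. The edgeR fit to all 9 libraries called Xdh alone, for FICZ against control, where 0.113% of all genes passed as higher. DESeq2 called Xdh in all 3 comparisons, where it called 0.364%, 0.097% and 0.0808% of all genes as higher. The edgeR fit without control replicate 3 did so too, where 0.574%, 0.183% and 0.12% passed as higher. The median log2 fold change of the list was 0.17 for FICZ against control, 0.19 for tryptamine against control and 0.004 for FICZ against tryptamine, beside -0.006, 0.004 and -0.003 over all genes tested. The highest per kb were Mosc2, a mitochondrial amidoxime reducer, Suox, the sulfite oxidase, and Nfs1, a cysteine desulfurase. Suox had 166.9 ± 7.26 CPM with FICZ, 166.1 ± 14.6 CPM with tryptamine and 162.4 ± 6.98 CPM in the controls (SD, n = 3 each), with a log2 fold change of 0.04 ± 0.10 for FICZ against control. Mosc2 gave -0.22 ± 0.15 and Nfs1 0.30 ± 0.15 in that comparison, and both were near 0 without control replicate 3 (-0.01 ± 0.07 and 0.11 ± 0.07). The other aldehyde oxidases were barely counted, with at most 17 counts of Aox3 and 8 of Aox4 in a library.

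Purine breakdown and salvage genes supply or divert the substrate of Xdh. Of 21 listed genes 14 were tested. The edgeR fit to all 9 libraries again called Xdh alone, for FICZ against control, where 0.113% of all genes passed as higher. The calls of Xdh in other fits are given above. The list had a median log2 fold change of -0.13 for FICZ against control and -0.11 for tryptamine against control, and of 0.007 and 0.026 without control replicate 3. Aprt and Hprt, which return purine bases to nucleotides, gave -0.26 ± 0.18 and -0.16 ± 0.15 for FICZ against control, and 0.01 ± 0.08 and 0.05 ± 0.08 without control replicate 3. Nt5c, a nucleotidase, gave -0.25 ± 0.23, and 0.11 ± 0.13 without control replicate 3, so its sign turned. Uox, which breaks urate down in mice, Gda, Allc and Nt5e had no count in any library. Of 8 urate transporters 3 were tested and none called by edgeR or DESeq2, and 1 (Abcc4) was higher at an unadjusted p under 0.05 for FICZ against control, where 3.52% of all genes were. Abcg2, a urate exporter, gave -0.17 ± 0.11, Abcc4 0.50 ± 0.18 and Slc2a9 -0.22 ± 0.37. Leaving out control replicate 3, they gave -0.16 ± 0.09, 0.28 ± 0.08 and -0.42 ± 0.34.

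Hydrogen peroxide removal was covered by 23 genes, of which 20 were tested and none called by edgeR in any of the 3 comparisons, with all 9 libraries or without control replicate 3, nor by DESeq2. An unadjusted p under 0.05 with all 9 libraries was reached by 1 of them, higher, for FICZ against control, by 1 higher and 1 lower for tryptamine against control, and by 0 for FICZ against tryptamine. Of all genes tested, 3.52% were higher and 4.6% lower by that rule for FICZ against control, and 2.18% higher and 2.97% lower for tryptamine against control, so 1 of 20 is close to the share over all genes. For FICZ against control 16 of the 20 lay below 0 with a median of -0.17, and 9 of 20 lay below 0 with a median of 0.01 once control replicate 3 was left out. Txn1 (thioredoxin), Prdx6 and Prdx1 (peroxiredoxins) were the highest per kb. Their log2 fold changes for FICZ against control were -0.16 ± 0.15, -0.15 ± 0.14 and -0.22 ± 0.19, and without control replicate 3 they were 0.05 ± 0.07, 0.05 ± 0.06 and 0.10 ± 0.06.

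The list labelled superoxide removal and metal supply, a loose grouping that also holds Mtch1 and Mtch2, had 12 of 13 genes tested. None was called with all 9 libraries by edgeR, where 1 was higher (Sod3) and 2 were lower at an unadjusted p under 0.05 for FICZ against control (3.52% and 4.6% of all genes), and DESeq2 called Sod3 as higher (0.364% of all genes). The edgeR fit without control replicate 3 called Sod3 for FICZ against control, where 0.574% of all genes passed as higher. That fit called Sod3 for FICZ against tryptamine too, where 0.12% did, and no other gene of the list. DESeq2 with all 9 libraries also called Sod3 for FICZ against tryptamine, where it called 0.0808% of all genes as higher. The list median was -0.19 for FICZ against control with all 9 libraries and 0.009 without control replicate 3. Beside Sod1, the highest per kb were Slc25a39, a mitochondrial carrier, at -0.22 ± 0.14 for FICZ against control, and Mtch1 at -0.17 ± 0.12. In the fit without control replicate 3 they gave -0.03 ± 0.07 and -0.04 ± 0.08. Of 16 genes of the superoxide-making NADPH oxidases 3 were tested and none called by edgeR or DESeq2 or at an unadjusted p under 0.05. Rac1, a small GTPase that activates them, had 586.7 ± 13.5 CPM with FICZ, 586.0 ± 29.0 CPM with tryptamine and 621.5 ± 83.1 CPM in the controls, while Nox1 and Noxo1 were low and Nox3 and Nox4 were at 0.

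**Figure D5:**
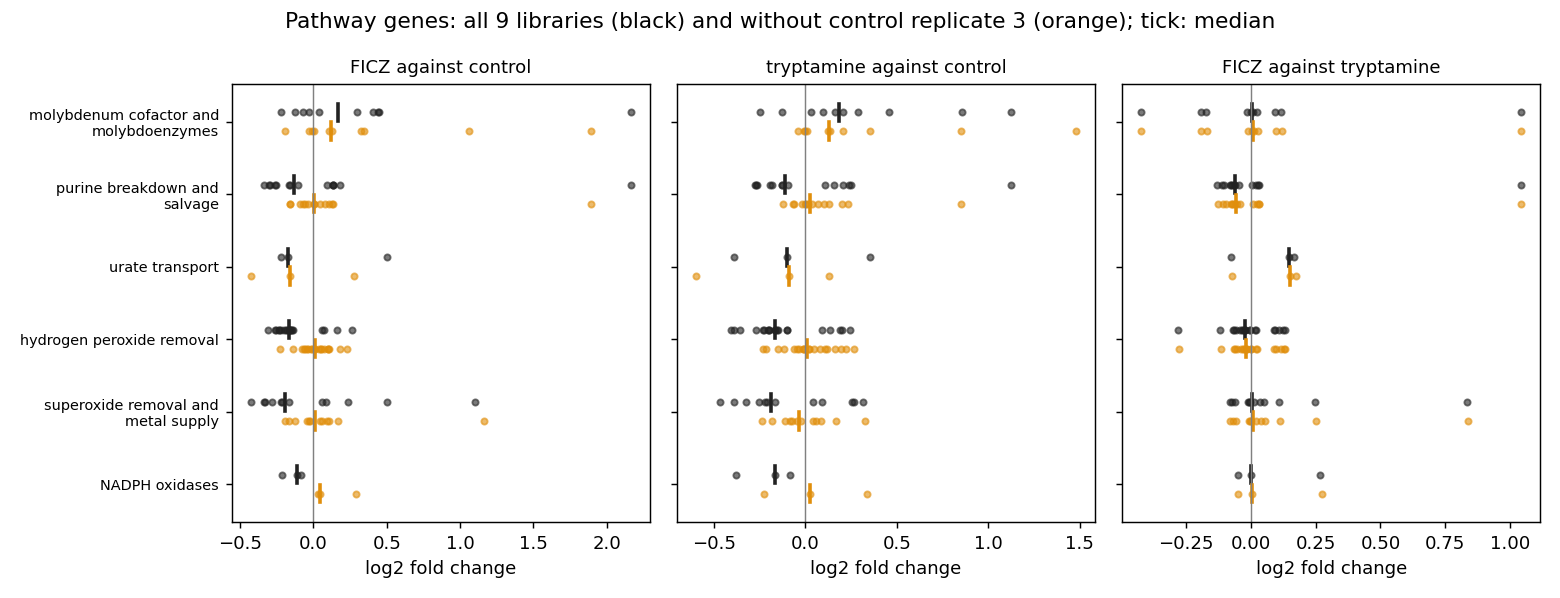
Each point is the log2 fold change (x axis) of a tested gene of 6 pathway lists (y axis) in the 3 comparisons, with all 9 libraries in black and without control replicate 3 in orange, and the tick is the median. Against control, the black points of the peroxide and superoxide lists lie mostly left of 0 and the orange ones around it, and Xdh is the point farthest right for FICZ against control.

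The genes whose levels ran most like Xdh were looked for among 11408 genes with a mean of at least 20 counts, by Pearson correlation of log2 CPM over the 9 libraries, which share 3 groups. They were Cpox, a heme synthesis enzyme, at 0.991, Mpp2 at 0.987, Tbc1d16 at 0.987, Adipor2 at 0.981 and Prkca at 0.979. Over the 8 libraries without control replicate 3 these genes gave 0.983, 0.978, 0.984, 0.980 and 0.962, and the order differed. Adh7 came first there at 0.987, Tbc1d16 and Cpox were ranked 2 and 3, and Adipor2, Mpp2 and Prkca were ranked 6, 7 and 14. Genes most like Xdh or Sod3 were picked over the same libraries, and Xdh was chosen for its response. Their fold changes and calls follow from that choice and are a description. Cpox, Mpp2 and Tbc1d16 had log2 fold changes of 1.00 ± 0.12, 1.27 ± 0.17 and 1.45 ± 0.15 for FICZ against control. They passed the test, where 0.113% of all genes passed as higher. For tryptamine against control they had 0.57 ± 0.12, 0.77 ± 0.17 and 0.64 ± 0.15, which did not pass. In the fit without control replicate 3, all 3 passed for tryptamine against control too (adjusted p = 0.00297 for Cpox and 0.0268 for Mpp2 and Tbc1d16), where 0.183% of all genes passed as higher. Adipor2 and Prkca passed in that fit for FICZ against control (adjusted p = 0.00735 and 0.000155), where 0.574% of all genes did. For Sod3, genes among the 5 most alike were Mxd4 at 0.980, Slc16a13 at 0.935, Aph1a at 0.919 and Pik3r3 at 0.908. Over the 8 libraries without control replicate 3, Loxl2 came first at 0.980 and Mxd4 was ranked 2, while Aph1a, Slc16a13 and Pik3r3 were ranked 8, 14 and 24. Mxd4, Slc16a13, Aph1a and Pik3r3 did not pass for FICZ against control with all 9 libraries, and their log2 fold changes ran from 0.27 for Aph1a to 1.21 for Pik3r3. Each of these correlations rests on 3 groups and says nothing on shared control.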

How the data were processed

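RNA of 9 libraries was analysed, 3 each of FICZ, tryptamine and control. Per the file headers, the authors deposited whole-number counts of reads for each of 189660 transcripts, without normalization, in a table for each pair of groups, with p-values, adjusted p-values and log2 fold changes of their own. Lengths and exon numbers in the deposited tables have units of nt and exons. The submitters' processing notes name DESeq. The sources used here name no aligner, counting rule, genome build or annotation. The 9 count columns repeated between tables were identical, and 18 further per-library columns were not used. Transcripts share reads, and all transcripts of a gene together hold more counts than the gene's top one (5.37 to 5.62 times, over all genes), so the top transcript stands for each gene. Entries with no gene ID were left out (3.56 to 4.23% of counts).

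All 9 libraries entered 1 edgeR 4.0.16 quasi-likelihood fit (R 4.3.3) with TMM scaling, filterByExpr and group as the term. A gene was called at a Benjamini-Hochberg adjusted p under 0.05 over all genes tested. CPM is counts per 1000000 of the effective library size, SE is the log2 fold change over the square root of F, and scripts were tested on simulated data. Alternatives were DESeq2 1.42.0 (Wald test, size factors), other low-count filters, only the 6 libraries compared, the replicate block, sums over transcripts, transcript length offsets, leaving out each library and, chosen after seeing the data, the RefSeq transcript. The members, pathway lists and markers were chosen with earlier results of these data known. Named were all members, called genes and the 3 highest per kb of each list, and the 5 genes most like Xdh or Sod3, of which 1 is not reported here.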

Additional observations from a re-analysis of the deposited data

How the results depend on the processing

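Sod3 had 72 to 215 counts a library, the fewest of the members. The number of members called for FICZ against control was 2 with the DESeq2 Wald test (of 45 genes called higher among 12372), without a low-count filter (of 26 among 18257) and with transcript length offsets (of 47 among 12372), 0 with only the 6 libraries compared (of 2 among 12174), and 1 to 2 leaving out a library each, with 2 without control replicate 3 (of 72 among 12539). For tryptamine against control it was 1 with DESeq2 (of 12) and with length offsets (of 6) and 0 to 1 leaving out a library, with 1 without control replicate 3 (of 23). For FICZ against tryptamine it was 2 with DESeq2 (of 10) and with 6 libraries (of 16), 1 with length offsets (of 5) and 0 to 2 leaving out a library, with 2 without control replicate 3 (of 15). The log2 change of Xdh for FICZ against control passed in 17 of 18 alternatives, but not with 6 libraries (2.17, adjusted p = 0.116), and ran from 1.89 to 2.37 leaving out a library. For tryptamine against control it passed with DESeq2 (1.12), length offsets (0.92) and without control replicate 3 (0.85), and ran from 0.85 to 1.33. For FICZ against tryptamine it passed with DESeq2 (1.05), 6 libraries (1.04), length offsets (1.03) and without control replicate 3 (1.04), and ran from 0.97 to 1.10. The length offsets used the 7775 nt length for Xdh. Sod3 passed in 4 of 18 alternatives for FICZ against control and in 3 of 18 for FICZ against tryptamine, always higher. The cause was not tested.

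Near 0, signs turned. Sod2 gave -0.0093 with sums over transcripts and -0.0059 with length offsets for FICZ against control, and -0.027 and -0.022 for tryptamine against control, where Sod1 gave 0.032 with length offsets. Leaving out a library, the log2 change for FICZ against control ran from -0.19 to 0.074 for Aox1 and from -0.059 to 0.14 for Cat. For tryptamine against control it ran from -0.0035 to 0.26 for Aox1, -0.41 to 0.044 for Sod1, -0.012 to 0.088 for Sod2 and -0.032 to 0.17 for Cat. For FICZ against tryptamine it ran from -0.078 to 0.023 for Mocos, -0.018 to 0.070 for Sod2 and -0.12 to 0.026 for Cat. Libraries with equal replicate numbers were little alike in their deviations from group means (r of -0.06 to 0.12 over 9 pairs, 1 over 0.1). With 3 libraries a group and control replicate 3 apart, this cannot exclude a pairing. With the replicate block, 1, 0 and 0 members were called in the 3 comparisons, and Xdh gave 2.21, 1.17 and 1.04.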

Other observations

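Some transcripts of the 7 genes ran apart from the rest of their gene. A 616 nt Xdh transcript of 7 exons had 34, 46 and 6 counts in control replicates 1, 2 and 3. A Sod2 transcript of 1 exon had 27, 18 and 51 counts in the same order. The 3 Aox1 transcripts had log2 differences of -2.11 to -0.58 between control replicate 3 and the mean of the other controls.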
